A study of Rattus norvegicus with 8 samples.

Results

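Glutathione transferases are a set of soluble and membrane enzymes, and 10 of their genes were looked up by symbol in the deposited gene table of rat aorta. Of these, 8 had a row (Gsta1, Gstm1, Gstp1, Gstt1, Gstk1, Gstz1, Mgst1 and Mgst3), each a single one among 27742 rows, while Gstm2 and Gsto1 had none under those symbols. The lookup used the symbols and no measured value, but the members were chosen with earlier results of these data known. RNA came from thoracic aorta of male, wild type Sprague Dawley rats, labelled 12 weeks old and 180 to 200 g, with 4 libraries in each group. The nitroglycerin group received glyceryl trinitrate (GTN), an organic nitrate that relaxes vessels, as subcutaneous doses of 100 mg/kg, 3 per day over 3 days. Control rats were given the ethanol vehicle. By the series title, the question is which genes differ in the aorta once it has become tolerant to the drug. Whether every library stands for a separate rat is not stated in the labels, so p-values measure only the spread between these libraries, which may be technical.

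Glutathione transferases join the thiol of glutathione to reactive, fat-soluble compounds, and several also reduce lipid peroxides. The soluble enzymes fall into classes named by Greek letters, and separate families sit in mitochondria and peroxisomes or in membranes. They have long been considered for the breakdown of organic nitrates, which releases nitrite from the drug with glutathione as the partner. Many of their genes are targets of the transcription factor NRF2, which binds antioxidant response elements.

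Promoter sequences are shown for the 3 members whose start region holds the core of that element, because the element is the best known shared control of the family. RefSeq sequences of the build GRCr8, 250 bases before to 50 bases after the start, were found by symbol for 7 of the 8 members, all but Gstt1. Older RefSeq symbols of Gsta1 include Gsta3 and Gsta5, which are separate rows here. Its sequence may thus not belong to the measured row named Gsta1. The core was searched as TGACNNNGC on both strands, and its letters are in capitals. Gsta1 lies on the minus strand at chr9:31216483-31216782, Gstp1 on the minus strand at chr1:210769656-210769955 and Gstz1 on the plus strand at chr6:112525356-112525655.
Gsta1: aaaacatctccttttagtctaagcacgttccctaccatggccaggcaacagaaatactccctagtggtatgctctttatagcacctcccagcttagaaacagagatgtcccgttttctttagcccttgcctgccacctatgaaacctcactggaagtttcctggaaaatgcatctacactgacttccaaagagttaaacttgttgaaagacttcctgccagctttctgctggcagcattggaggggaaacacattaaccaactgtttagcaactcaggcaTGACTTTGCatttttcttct
Gstp1: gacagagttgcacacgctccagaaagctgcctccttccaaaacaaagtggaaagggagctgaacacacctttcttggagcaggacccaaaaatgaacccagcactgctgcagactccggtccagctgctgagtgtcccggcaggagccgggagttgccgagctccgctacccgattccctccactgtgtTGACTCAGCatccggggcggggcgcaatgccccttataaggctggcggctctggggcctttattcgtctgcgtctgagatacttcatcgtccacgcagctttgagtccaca
Gstz1: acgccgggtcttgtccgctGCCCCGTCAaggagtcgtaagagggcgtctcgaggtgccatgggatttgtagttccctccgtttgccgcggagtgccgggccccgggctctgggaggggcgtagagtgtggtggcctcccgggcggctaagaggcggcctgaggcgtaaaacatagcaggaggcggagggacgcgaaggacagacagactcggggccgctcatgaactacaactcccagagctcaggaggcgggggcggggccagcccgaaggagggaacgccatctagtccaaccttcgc
The Gstp1 match, TGACTCAGC, runs from base -61 to -53 before the start. The Gsta1 match, TGACTTTGC, lies from base 31 to 39 after the start. In Gstz1 the match is on the opposite strand, from base -231 to -223, and reads TGACGGGGC there. Of all 33469 promoters in the table, 12.1% held such a match, and 4 of the 7 member promoters (Gstm1, Gstk1, Mgst1 and Mgst3) held none in this window. The core of the xenobiotic response element, GCGTG, was in 2 of the 7 (Gstp1 and Mgst3) and in 29.7% of all promoters, and no match of it overlapped the other motif. A match is a run of letters only, and no binding was measured.

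Values are FPKM, fragments scaled to transcript length and to library size, so levels can be set between genes. In control aorta, Gstp1 and Gstm1 had the highest mean levels of the members, at 7.18 ± 0.931 and 7.07 ± 1.53 FPKM (mean ± SD, n = 4), which overlapped each other. Mgst3 (5.03 ± 1.04 FPKM), Gstt1 (4.44 ± 0.975), Gstk1 (3.96 ± 1.03), Gstz1 (3.86 ± 1.07) and Gsta1 (3.74 ± 0.505) followed, each within 1 SD of its neighbour. Mgst1 was lowest, at 1.55 ± 0.760 FPKM, and its highest control library (2.38) was below the lowest of Gsta1 (3.04). In nitroglycerin aorta Gstp1 again led, at 12.5 ± 2.41 FPKM, and the other 7 means lay between 7.15 (Mgst3) and 8.49 FPKM (Gstm1). The Mgst1 mean of 7.81 FPKM in that group rests on replicate 1, and without it the mean is 4.20 ± 0.384 FPKM (SD, n = 3), below the other members.

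All 8 members had a higher mean in nitroglycerin aorta, and 1 of them, Gsta1, passed the test over all genes. Groups were compared by limma on log2(FPKM + 1) over the 12977 rows that reached 1 FPKM in 4 or more libraries, with Benjamini-Hochberg adjustment and a threshold of 0.05 on adjusted p. All 8 members met that filter. By this test 1.29% of all rows rose and 0.0616% fell, and none of the members fell. Most of the transcriptome was higher in these libraries: 86.6% of all rows had a log2 difference above 0, and the median row differed by 0.30. The median of the 8 members was 0.78. After the libraries were rescaled by median-of-ratios factors, which set the median row at 0.01, no member passed by limma, while 0.0308% of all rows rose and 0.131% passed in either direction. On that scale 7 of 8 members were above 0, against 52.4% of all rows, with a median of 0.44. At an unadjusted p under 0.05, limma gave 7 members higher as deposited (34.1% of all rows were) and 5 after rescaling (5.50% of all rows).

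**Figure D1:**
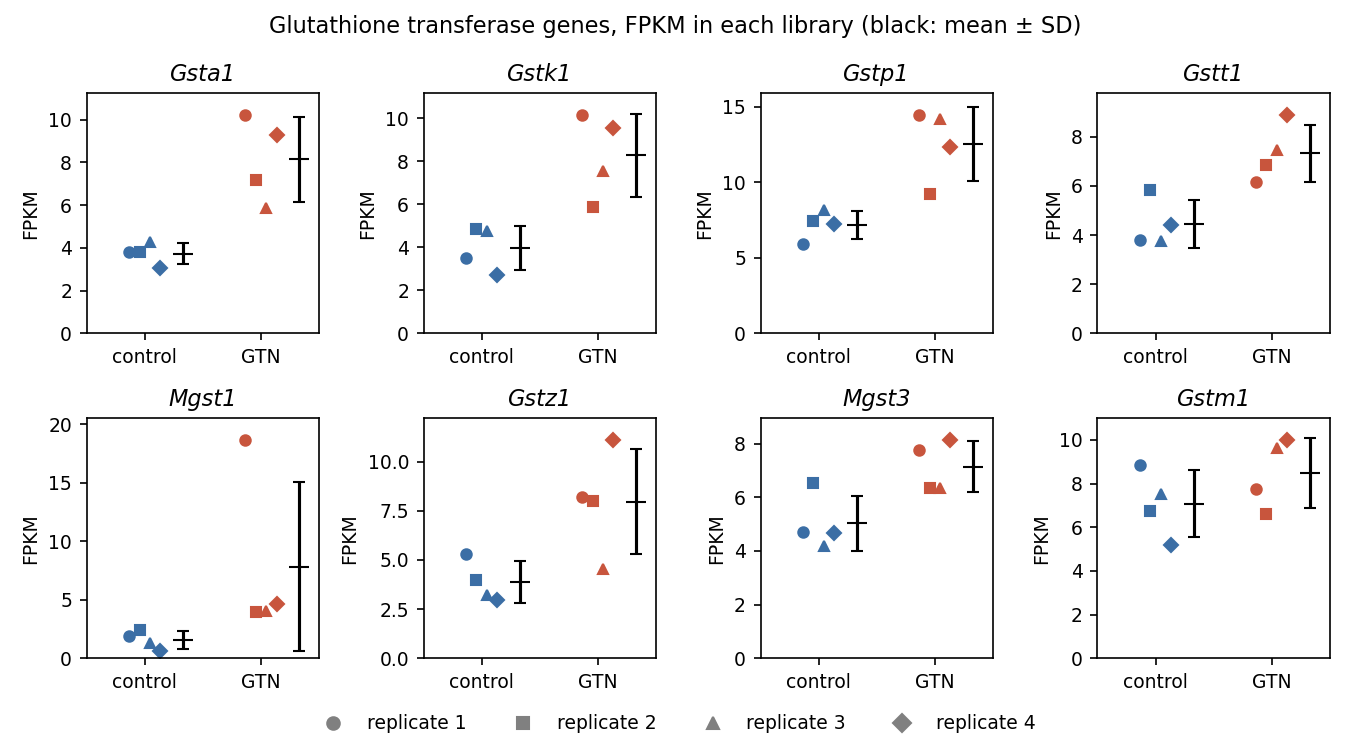
FPKM (vertical axes, each from 0) of the 8 genes in every library of control and nitroglycerin (GTN) aorta, with symbols for the replicate number and black bars for mean ± SD of 4 libraries. Gsta1, Gstk1, Gstp1, Gstt1 and Mgst1 show no overlap between groups, and 1 nitroglycerin library stands far above the rest for Mgst1, at 18.6 FPKM.

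Every nitroglycerin library lay above every control library for 5 members as deposited (Gsta1, Gstp1, Gstt1, Gstk1 and Mgst1), as was so for 24.2% of all rows. After rescaling this held for 2 members, Gstk1 and Mgst1, against 3.78% of all rows.

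Gsta1 encodes an alpha class enzyme that conjugates electrophiles and reduces organic hydroperoxides. It read 3.83, 3.83, 4.25 and 3.04 FPKM in control replicates 1 to 4 and 10.2, 7.18, 5.86 and 9.31 FPKM in nitroglycerin replicates 1 to 4. The controls were close together, and all nitroglycerin libraries lay above them. The log2 difference was 0.93 (SE 0.17, 95% interval 0.54 to 1.32, limma adjusted p = 0.0492 after Benjamini-Hochberg), which placed Gsta1 above 98.1% of all rows in size of difference. After rescaling the log2 difference was 0.60 (95% interval 0.20 to 1.00, limma adjusted p = 0.245), and the lowest nitroglycerin library, at 4.93, fell below the highest control, at 5.16 rescaled FPKM. The call was lost in 14 of 17 other settings, which left the log2 difference between 0.49 and 1.08 and gave limma adjusted p-values of 0.0387 to 0.463. It held only with a filter at a mean of 5 FPKM (3 members passed there, and 5.45% of all rows rose), without nitroglycerin replicate 2, and among rows with an annotated transcript. Older symbols of this gene in the RefSeq table include Gsta3 and Gsta5, so alpha class names may not match between annotations.

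Gstp1 encodes the pi class enzyme, which also binds the signalling kinase JNK. It read 5.91, 7.40, 8.15 and 7.25 FPKM in control replicates 1 to 4, and 14.4, 9.19, 14.2 and 12.3 FPKM in nitroglycerin replicates 1 to 4. Nitroglycerin replicate 2 was nearest to the controls but still above them. The log2 difference was 0.71 (95% interval 0.35 to 1.08), above that of 94.7% of rows, but missed the threshold (limma adjusted p = 0.0581). After rescaling it was 0.36 (95% interval 0.08 to 0.64, limma adjusted p = 0.299).

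Gstt1 encodes a theta class enzyme that acts on small halogenated compounds. Its control libraries read 3.78, 5.84, 3.76 and 4.40 FPKM and its nitroglycerin libraries 6.15, 6.84, 7.47 and 8.87 FPKM, in order of replicate number. The groups were separate by a small margin, 5.84 against 6.15 FPKM. The log2 difference was 0.62 as deposited (95% interval 0.27 to 0.97, limma adjusted p = 0.0615) and 0.29 after rescaling (95% interval 0.02 to 0.56, limma adjusted p = 0.382).

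Gstm1 encodes a mu class enzyme, of the class that conjugates aromatic and epoxide compounds. It was the member with the smallest difference, at 8.83, 6.74, 7.54 and 5.16 FPKM in controls and 7.74, 6.60, 9.65 and 9.99 FPKM in nitroglycerin libraries. The groups overlapped over most of their range. Its log2 difference of 0.24 (95% interval -0.17 to 0.65, limma adjusted p = 0.343) was below that of the median row, and it turned to -0.11 after rescaling (95% interval -0.57 to 0.35, limma adjusted p = 0.873). These intervals leave room for a change in either direction.

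Gstk1 encodes the kappa enzyme of mitochondria and peroxisomes. It read 3.52, 4.85, 4.76 and 2.71 FPKM in controls and 10.1, 5.89, 7.56 and 9.55 FPKM in nitroglycerin libraries. All nitroglycerin libraries exceeded all controls, both as deposited and after rescaling, where the nearest values were 5.24 in a control and 5.52 FPKM in a nitroglycerin library. The log2 difference was 0.90 (95% interval 0.45 to 1.36, limma adjusted p = 0.0573), and 0.57 after rescaling (95% interval 0.17 to 0.98, limma adjusted p = 0.269).

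Gstz1 encodes maleylacetoacetate isomerase, a step of tyrosine breakdown. Its controls read 5.32, 3.97, 3.19 and 2.95 FPKM and its nitroglycerin libraries 8.22, 7.99, 4.55 and 11.1 FPKM. Nitroglycerin replicate 3 lay inside the control range, and the other 3 lay above it. The log2 difference of 0.85 (95% interval 0.30 to 1.41, limma adjusted p = 0.069) became 0.53 after rescaling, with an interval that included 0 (-0.11 to 1.16).

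Gstp1, Gstt1, Gstk1, Gstz1 and Mgst1 (described below) had limma adjusted p-values of 0.0573 to 0.069 as deposited, just above the threshold that Gsta1 met at 0.0492. Their limma p-values ranked 384, 683, 354, 1281 and 1262 of the 12977 tested rows, in that order, and 175 rows were called. Many other rows thus lay in the same range. Among rows with an annotated transcript, a choice made after seeing the data, Gsta1, Gstp1, Gstt1 and Gstk1 passed by limma (adjusted p of 0.0387 to 0.0481), and 8.05% of all rows tested there rose. With nitroglycerin replicate 2 left out, Gsta1, Gstp1 and Gstk1 passed, as 2.05% of all rows rose there, and with any other library left out no member did.

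**Figure D2:**
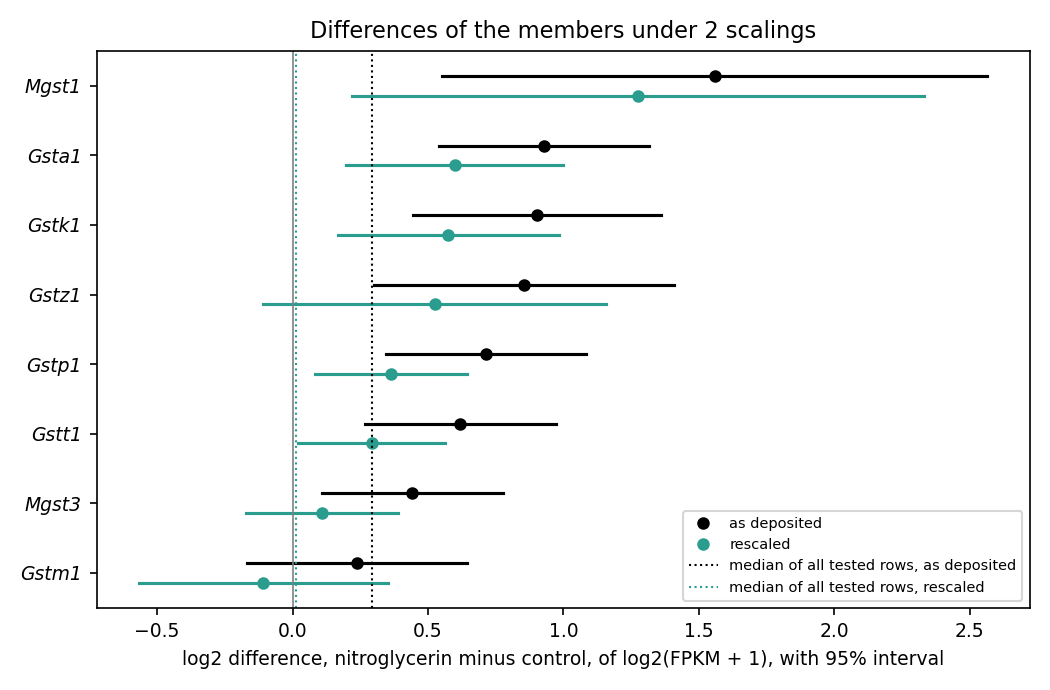
Log2 difference of nitroglycerin minus control with 95% intervals (horizontal axis) for the 8 genes, as deposited in black and after median-of-ratios rescaling in green, with dotted lines at the medians of all 12977 rows. The points lie from 0.24 for Gstm1 to 1.56 for Mgst1 as deposited, and each is lower after rescaling.

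Mgst1 and Mgst3 encode membrane enzymes of the MAPEG family. Mgst1, a detoxifying conjugase and peroxidase of the endoplasmic reticulum and outer mitochondrial membrane, read 1.89, 2.38, 1.29 and 0.628 FPKM in controls and 18.6, 3.96, 3.99 and 4.64 FPKM in nitroglycerin libraries. It had the largest difference of the 8 members and the widest spread, because nitroglycerin replicate 1 stood far above the other libraries. The log2 difference was 1.56 (SE 0.44, 95% interval 0.55 to 2.57, limma adjusted p = 0.0685), above 99.8% of rows, and 1.28 after rescaling (95% interval 0.22 to 2.33, limma adjusted p = 0.33). Without nitroglycerin replicate 1 it was 1.08 (SE 0.24, limma adjusted p = 0.136), and 0.80 with rescaling as well (SE 0.25, limma adjusted p = 0.432).

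Adipocyte markers moved with that library. The summed FPKM of 12 adipocyte markers was 183.5 in nitroglycerin replicate 1, against 35.5 to 42.9 in the other 3 nitroglycerin libraries and 20.6 to 43.8 in controls. Of the adipocyte genes with the highest levels, Fabp4, a fatty acid carrier, read 39.6 FPKM there against 6.55 to 10.6 in the other nitroglycerin libraries, and Cfd, the secreted protease adipsin, 39.7 against 9.27 to 9.61 FPKM. Of the 12 markers 6 met the filter and none was called by limma. In the other 3 nitroglycerin libraries Mgst1 read 3.96 to 4.64 FPKM, above all controls, while their adipocyte sums lay within the control range. Of the same markers, Cfd in these 3 libraries was above its controls (2.17 to 6.97 FPKM), and Fabp4 overlapped them (3.82 to 9.01 FPKM). The part of adipocytes in the Mgst1 difference was not tested beyond these values. In bulk tissue, a change in the number of cells of a type and a change of RNA per cell cannot be told apart. Without nitroglycerin replicate 1 no member was called by limma as deposited, with 7 of 8 members higher at an unadjusted p under 0.05 (26.9% of all rows) and all 8 log2 differences above 0 (86.6% of all rows). With rescaling as well, 5 members were higher at an unadjusted p under 0.05, against 3.95% of all rows.

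**Figure D3:**
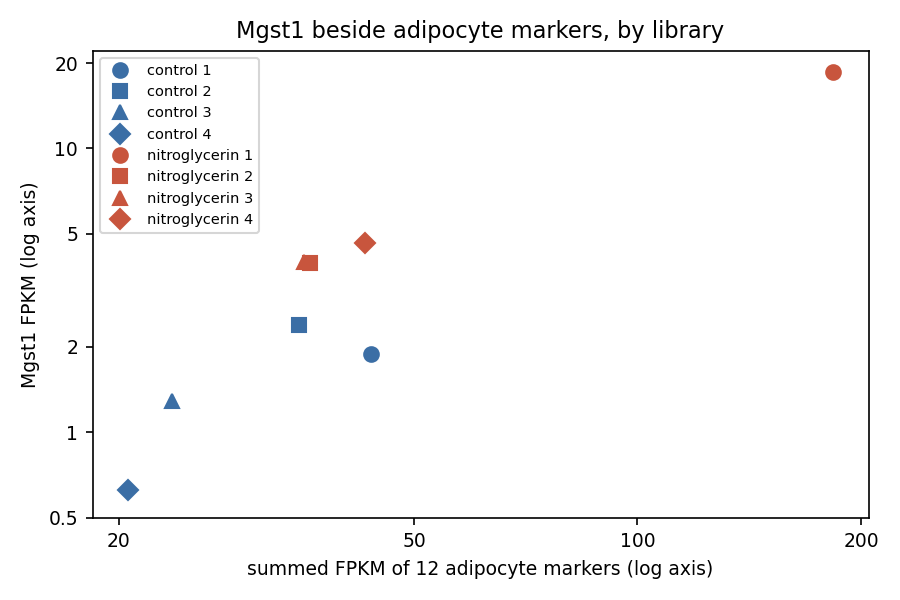
Mgst1 FPKM (vertical log axis) against the summed FPKM of 12 adipocyte markers (horizontal log axis), 1 point for each of the 8 libraries. Nitroglycerin replicate 1 is at 183.5 and 18.6 FPKM, and the other 3 nitroglycerin libraries share the range of marker sums of controls 1 and 2 with higher Mgst1.

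Mgst3, which acts on leukotriene precursors and lipid peroxides, read 4.69, 6.54, 4.20 and 4.68 FPKM in controls and 7.78, 6.33, 6.34 and 8.14 FPKM in nitroglycerin libraries. Control replicate 2 overlapped the nitroglycerin group. Its log2 difference of 0.44 (95% interval 0.11 to 0.78, limma adjusted p = 0.087) was above that of 75.9% of rows, and it was 0.11 after rescaling (95% interval -0.17 to 0.39, limma adjusted p = 0.767).

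Ratios between members within a library depend less on how libraries are scaled, although the pseudocount leaves some dependence. The log2 ratio of Mgst1 to Mgst3, taken from FPKM + 1, was -1.28 ± 0.361 in controls and -0.163 ± 0.886 in nitroglycerin libraries (SD, n = 4 per group), a difference of 1.12. Every nitroglycerin library was above every control (exact permutation, two-sided, p = 0.0286, the lowest value possible here, and 0.0571 after Benjamini-Hochberg over 2 ratios). Without nitroglycerin replicate 1 the difference was 0.68 and the exact permutation p was 0.0571. The log2 ratio of Gsta1 to Gstp1 was -0.786 ± 0.209 in controls and -0.573 ± 0.387 in nitroglycerin libraries, a difference of 0.21 within the spread (two-sided exact permutation p = 0.371). A ratio of Gstm1 to Gstm2 could not be formed, since Gstm2 had no row.

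The summed FPKM of the 8 members, as deposited, was 37.8, 41.6, 37.1 and 30.8 in controls and 83.3, 54.0, 59.6 and 73.9 in nitroglycerin libraries. These sums carry the difference in scale between groups, with rescaling factors of 0.742 to 0.996 in controls and 1.07 to 1.22 with nitroglycerin. The sums also leave out family rows of higher level, Gstm7 (means of 42.7 and 67.4 FPKM) and NEWGENE_620381 (37.7 and 34.3 FPKM), described below. Gstm1 made up 16.2% to 23.4% of that sum in controls and 9.29% to 16.2% in nitroglycerin libraries, where the highest nitroglycerin value was just below the lowest control value. Mgst1 made up 2.04% to 5.73% in controls and 6.28% to 22.4% with nitroglycerin. The share of Gstp1 was 19.7 ± 3.63% in controls and 18.7 ± 3.41% with nitroglycerin, and that of Gsta1 was 10.2 ± 0.942% and 12.0 ± 1.51%. Shares add to a fixed total, so the rise of one lowers the others.

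**Figure D4:**
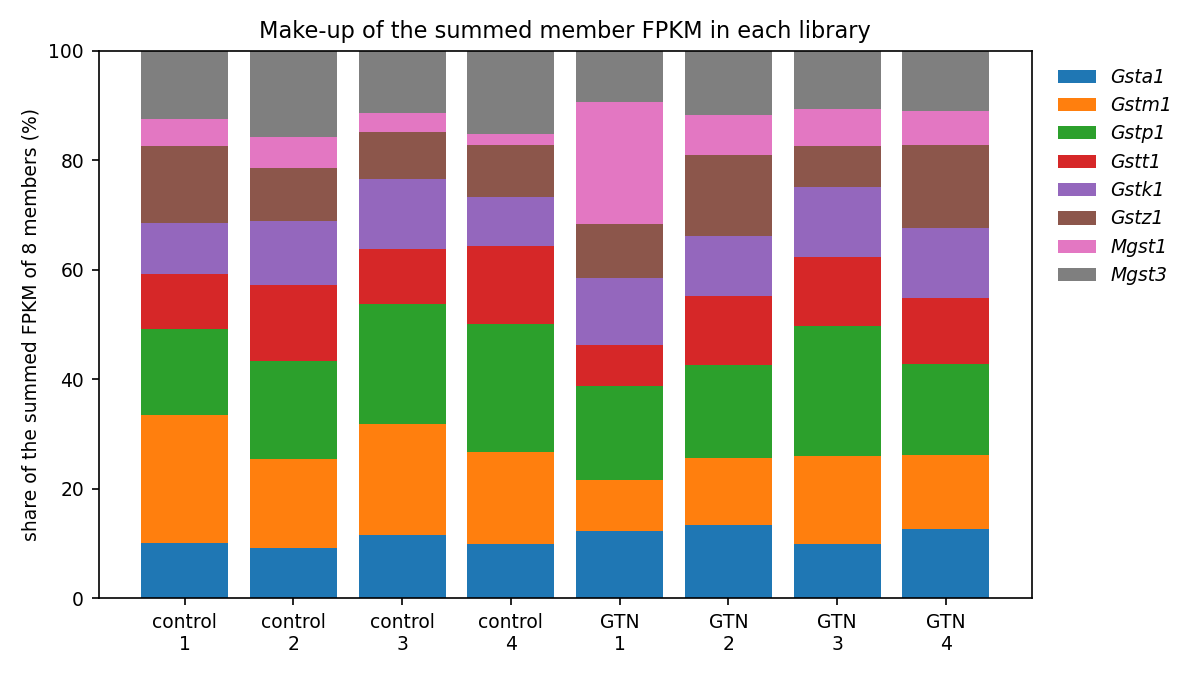
Share in percent of the summed FPKM of the 8 genes (vertical axis, stacked to 100) taken by each gene in every control and nitroglycerin (GTN) library. The Gstm1 band is 16.2% to 23.4% of the control bars and 9.29% to 16.2% of the nitroglycerin bars, and the Mgst1 band is widest in nitroglycerin replicate 1, at 22.4%.

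Within the nitroglycerin group the members, as deposited, did not all follow the same order of libraries. Replicates 1 and 4 held the highest values of Gsta1, Gstk1, Gstz1, Mgst1 and Mgst3 in that group. For Gstp1 the highest were replicates 1 and 3, and for Gstt1 and Gstm1 replicates 3 and 4. Nitroglycerin replicate 3 held the lowest values of Gsta1 and Gstz1, and replicate 2 those of Gstp1, Gstk1, Gstm1, Mgst1 and, by a narrow margin, Mgst3. Replicate 1 had the lowest value of Gstt1 and the highest of Gsta1, Gstp1, Gstk1 and Mgst1. Part of this order changed after rescaling. The highest values were then in replicates 4 and 2 for Gstz1 (9.13 and 7.49 rescaled FPKM) and for Gstt1 (7.29 and 6.41). Replicate 3 then held the lowest values of Mgst1 (3.36) and Mgst3 (5.33).

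Other rows of the family were also read. The table held 26 rows named or described as glutathione transferases, of which 14 met the filter, and none of the 6 that were not members was called by limma. The most abundant was the row named Gstm7, a mu class gene, at 42.7 ± 10.9 FPKM in controls and 67.4 ± 4.70 FPKM with nitroglycerin. All its nitroglycerin libraries, at 61.8 to 71.8 FPKM, lay above its controls, at 32.0 to 54.1 FPKM. Its log2 difference was 0.68 (limma adjusted p = 0.0674), and 0.30 after rescaling (limma adjusted p = 0.448). This row holds 3 annotated transcripts, and whether Gstm2 is among them was not given in the sources used here. Likewise the row named Gsto2 holds 6 annotated transcripts, and Gsto1 is its neighbour in the RefSeq order. That row read 2.11 ± 0.383 FPKM in controls and 2.60 ± 0.143 FPKM with nitroglycerin (limma adjusted p = 0.196).

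A further mu class row, NEWGENE_620381, described as mu 3 and singled out after its values were seen, was, as deposited, the only tested row of the family with a lower mean under nitroglycerin. After rescaling Gstm1, Gstm4, Gstt3 and Gsto2 also had a log2 difference below 0, of -0.11, -0.0055, -0.028 and -0.052. It read 37.7 ± 2.76 FPKM in controls and 34.3 ± 1.68 FPKM with nitroglycerin, a log2 difference of -0.13 (limma adjusted p = 0.424). For NEWGENE_620381 the rescaled difference was -0.51 (95% interval -0.72 to -0.30, limma adjusted p = 0.0949), with every nitroglycerin library below every control. Theta class Gstt2, a neighbour in class of Gstt1, stood at 4.12 ± 1.12 and 7.34 ± 2.46 FPKM with overlapping groups (limma adjusted p = 0.093). The genes of the mu cluster have near-identical copies, and Gstm1 lies between Gstm2 and Gstm4 in the RefSeq order, so reads could be split between rows and mu class values are uncertain. The alpha class rows other than Gsta1 did not meet the filter: the means of Gsta2, Gsta3 and Gsta5 over all libraries were 0.00347, 0.0142 and 0.0027 FPKM, and Gsta4 ranged from 0.0177 to 1.75 FPKM.

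**Figure D5:**
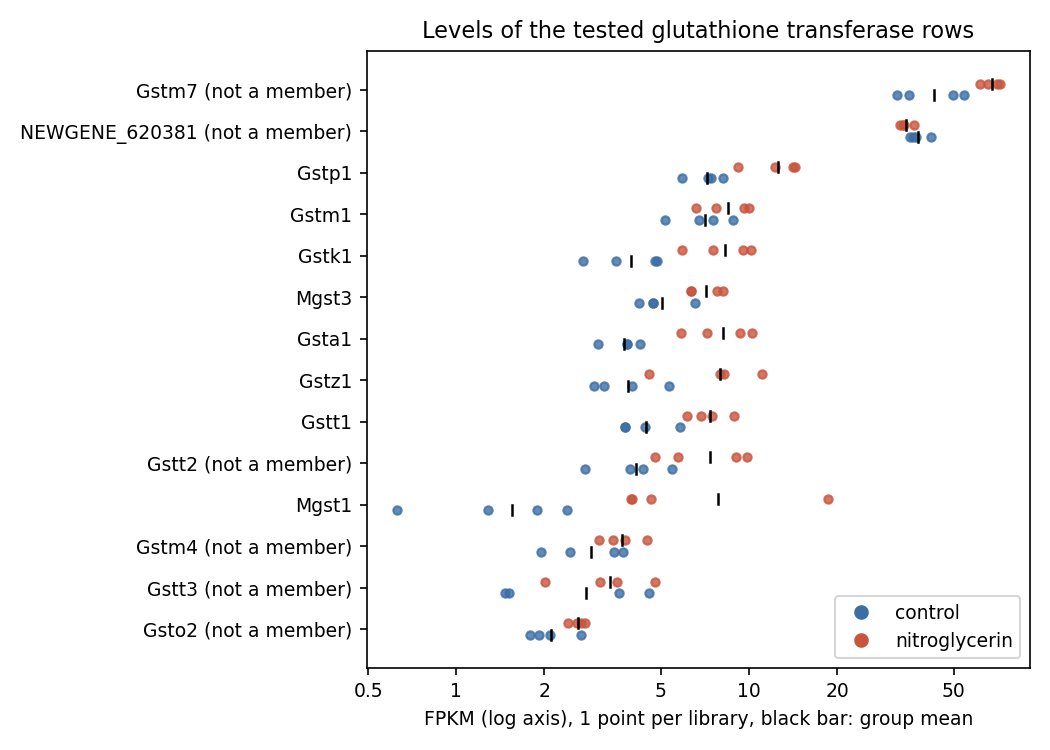
FPKM (horizontal log axis) of the 14 rows of the family that met the filter, with 1 point for each library in blue for control and red for nitroglycerin, and black bars at the group means. The mu class rows Gstm7 and NEWGENE_620381 lie between 32.0 and 71.8 FPKM, above every library of all 8 members.

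Other genes of glutathione use were counted from lists. Of 5 measured genes of glutathione synthesis none was called by limma, and all 5 had a log2 difference above 0 and an unadjusted p under 0.05. After rescaling all 5 were still above 0, but 0 of 5 had an unadjusted p under 0.05. The highest of these in level were Slc3a2, a subunit of amino acid exchangers including the cystine carrier, at 15.3 ± 2.25 and 22.8 ± 3.12 FPKM, and Gclc, the catalytic subunit of the first step of synthesis, at 4.30 ± 1.18 and 6.42 ± 1.58 FPKM. Of 11 genes of glutathione recycling and peroxide removal none was called and all 11 were above 0, with 7 at an unadjusted p under 0.05 by limma. After rescaling 9 of 11 were above 0 and 0 had an unadjusted p under 0.05. These counts as deposited stand beside 86.6% of all rows above 0 and 34.1% higher at an unadjusted p under 0.05. The lipid peroxidase gene Gpx4 stood at 24.8 ± 3.69 and 38.1 ± 3.30 FPKM (limma adjusted p = 0.0589). Gpx1, the main cytosolic peroxidase, read 0.949, 76.1, 69.3 and 67.3 FPKM in controls and 9.73, 97.1, 85.9 and 56.6 FPKM with nitroglycerin. The low values in both replicates numbered 1 can be failed estimates, so no mean is given.

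Of 11 genes of glutathione breakdown and conjugate export 2 rose, with all 11 above 0 as deposited and 10 after rescaling. By limma, 9 of the 11 were higher with an unadjusted p below 0.05 as deposited, and 2 on rescaled values. Among all rows as deposited, 1.29% rose, 86.6% lay above 0 and 34.1% were higher with such a p. On rescaled values 52.4% of all rows lay above 0 and 5.50% were higher with such a p. Cndp2, a dipeptidase that splits cysteinylglycine, rose from 5.99 ± 0.966 to 13.6 ± 3.27 FPKM (log2 difference 1.05, limma adjusted p = 0.0492). Acy1, an aminoacylase that acts on mercapturates, rose from 2.78 ± 0.253 to 5.28 ± 0.997 FPKM (log2 difference 0.72, limma adjusted p = 0.0492). Lap3, an aminopeptidase, stood at 6.55 ± 1.33 and 8.93 ± 0.805 FPKM. After rescaling neither Cndp2 nor Acy1 passed (limma adjusted p of 0.279 and 0.288).

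Of 18 NRF2 regulators and targets outside the glutathione lists, 2 rose and none fell, with 16 above 0 as deposited and 12 after rescaling. They were Aldh3a1, an aldehyde dehydrogenase, from 6.73 ± 0.946 to 13.4 ± 1.70 FPKM (limma adjusted p = 0.0413), and Maff, a small MAF partner of NRF2. Maff read 5.20, 0.477, 0.588 and 0.524 FPKM in controls and 11.9, 11.7, 16.7 and 6.88 FPKM with nitroglycerin (log2 difference 2.50, limma adjusted p = 0.0492), with control replicate 1 far above the other controls. After rescaling neither passed by limma (adjusted p of 0.151 and 0.183). Of the 18 genes, 10 were higher with an unadjusted limma p below 0.05 as deposited, and 4 on rescaled values. Beside these counts stand 34.1% and 5.50% of all rows. The shares of all rows above 0 were 86.6% as deposited and 52.4% on rescaled values, and 1.29% rose as deposited. The ferritin chain genes Fth1 and Ftl1, highest in level, did not pass. Fth1 stood at 178.8 ± 29.1 and 217.6 ± 11.8 FPKM. Ftl1 read 41.2, 0, 46.0 and 36.1 FPKM in controls, where the 0 can be a failed estimate, and 51.9 to 74.2 FPKM with nitroglycerin. The median log2 differences of the 4 lists were 0.51 for synthesis, 0.51 for recycling, 0.40 for breakdown and export and 0.47 for NRF2, beside 0.30 for all rows and 0.78 for the 8 members. After rescaling they were 0.19, 0.18, 0.07 and 0.14, beside 0.01 for all rows and 0.44 for the members. The list nearest to the members, other glutathione transferase and MAPEG genes with 6 tested, had a median of 0.27, below that of all rows, and of -0.017 after rescaling, with 4 of 6 below 0.

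The genes whose log2(FPKM + 1) ran most like that of Gsta1 over the 8 libraries were Wdr60, Mocs2 and Bcap31, with a Pearson likeness of 0.984, 0.974 and 0.973. For Gstp1, the member of highest mean level, they were Nedd4l, Gpr108 and Bckdk, at 0.993, 0.988 and 0.986. A likeness over 0.9 was common, with 328 other rows for Gsta1 and 937 for Gstp1, and all share the same libraries and the same shift between groups. These values are a description without a test.

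Aligned sequence was 6.77 to 8.86 Gb per library, and the 100 rows of highest mean over all libraries held 51.7% to 71.4% of the summed FPKM in controls and 47.4% to 50.4% with nitroglycerin, without overlap. The median tested row of a library stood at 2.18 to 2.93 FPKM in controls and 3.15 to 3.65 FPKM with nitroglycerin, so these measures moved with the members' levels as deposited, and their part was not tested. The smooth muscle genes Acta2 and Myh11 stood at 2075 ± 270.3 and 151.1 ± 12.7 FPKM in controls, so the labelled tissue had its defining markers. The labels give thoracic aorta as the tissue, while their extraction text speaks of RNA from an adipose type, and the labels do not resolve this. Beside the members, the summed FPKM of 7 smooth muscle markers was 2180 to 2849 in controls and 1331 to 2715 with nitroglycerin, of 7 endothelial markers 35.3 to 57.4 and 61.5 to 69.8, and of 7 macrophage markers 25.8 to 34.0 and 42.0 to 56.2. The endothelial and macrophage sums did not overlap between groups, and by limma 2 endothelial markers and 1 macrophage marker rose. Of all single rows, 24.2% had every nitroglycerin library above every control as deposited, and 1.29% rose. After rescaling the endothelial and macrophage sums overlapped, and no marker of either list rose. Endothelial sums were then 39.0 to 69.9 in controls and 57.3 to 58.8 with nitroglycerin, and macrophage sums 33.7 to 37.5 and 34.6 to 48.4. Smooth muscle sums, of which Acta2 makes up most, were then 2416 to 3150 and 1149 to 2544, and still overlapped. The median log2 difference of the 7 smooth muscle markers was -0.31 as deposited and -0.67 after rescaling, beside 0.30 and 0.01 for all rows. On the rescaled values 6 of these 7 were below 0, and none was called by limma. At an unadjusted limma p under 0.05, 4 of the 7 were then lower and 1 higher. Of all 12977 rows, 1550 had such a p in either direction, 714 of them higher. Every nitroglycerin library lay below every control for 3 of the 7 after rescaling and for 1 as deposited. The reverse held for 0 and 1, and the share of all rows lying below was not counted. No marker with a row in these 3 lists was at 0 in every library. The part of these cell types in the members' differences was not tested. No transcript of the 4686 in the deposited lncRNA table carried the symbol of a member.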

How the data were processed

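Thoracic aorta RNA was sequenced after removal of ribosomal RNA, per the labels' protocols. Tools listed in the submitters' processing notes, with no roles given, are Bowtie 0.12.2, StringTie 1.3.0 and HISAT2 2.0, beside the builds Rnor_6.0 and mm8. FPKM per gene and library were used as deposited, and FPKM and coverage per base (a signal) of the deposited lncRNA table gave the aligned sequence per library, since their ratio was constant within a library. No read counts per gene were analysed, so the depth behind each FPKM is unknown and no counting interval is given. FPKM values are relative, so a library dominated by a few genes lowers the rest.

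Members are rows with the given symbols. The members and gene lists were chosen with earlier results of these data known. Tests used limma 3.58.1 (R 4.3.3) on log2(FPKM + 1), where the added 1 understates changes of low genes. The prior variance was trended, and Benjamini-Hochberg adjustment ran over all 12977 tested rows. Rescaling divided each library by its median-of-ratios factor (0.742 to 0.996 in controls, 1.07 to 1.22 with nitroglycerin). Single ratios used two-sided exact permutation over 70 splits. The steps were tested on simulated data. Plots used Python 3.11.15 and matplotlib 3.10.9. Named genes were the members, the 2 of highest mean and up to 4 called genes of each pathway list, and the 3 rows most like 2 members. A mu class row, the low alpha class rows, Mafg and Mafk were named after their values were seen. Of marker lists, only smooth muscle and adipocyte genes are named. Alternatives covered the pseudocount, filter, scaling, replicate block, rows per symbol and each library left out.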

Additional observations from a re-analysis of the deposited data

Results flagged for a closer look

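Of 62 groups of 4 libraries examined for named genes, 7 (11.3%) held 1 library whose gap to the next took most of the group's range. The rule would mark about 1 in 20 groups of independent normal values. FPKM of genes that share libraries are not such values, so the shares cannot be compared. In nitroglycerin replicate 1, Mgst1 read 18.6 FPKM against 3.96 to 4.64 in the other 3, Fabp4 39.6 against 6.55 to 10.6, and Cfd 39.7 against 9.27 to 9.61 FPKM. In control replicate 1, Gpx1 read 0.949 FPKM against 67.3 to 76.1, and Maff 5.20 against 0.477 to 0.588 FPKM. Control replicate 3 had 1.53 FPKM of Wdr60 against 1.34 to 1.37, and nitroglycerin replicate 2 had 6.96 FPKM of Bckdk against 8.22 to 8.35. No cause was tested for these values.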

How the results depend on the processing

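By limma 175 genes were called as deposited. The number was 7 when the pseudocount was 0.1, 26 without the filter, 15 after quantile normalization, 17 after median-of-ratios rescaling, 30 with rows of a symbol summed, 5 to 284 with a library left out, and, as alternatives chosen after seeing the data, 828 among rows with an annotated transcript and 6 when rescaled without nitroglycerin replicate 1. Against 1 member called, there were 3 with the stricter filter (222 genes called of 3889 tested, 5.45% higher), 4 among annotated rows (10104 tested, 8.05% higher), 0 to 3 with a library left out, and 0 in the other of these settings, with 5 to 7 members at an unadjusted p under 0.05. With the replicate block limma called 0 genes, 0 members and 0 list genes (4037 genes and 7 members at an unadjusted p under 0.05). Whether equal replicate numbers pair the samples was not settled. The correlations of their deviations were 0.133, -0.0111, -0.0117 and 0.121 for replicates 1 to 4, and those of unequal numbers were -0.176 to 0.0875. Replicates 1 and 4 were thus above every unequal pair, and replicates 2 and 3 were not. Called genes of breakdown and export numbered 0 to 2 and of NRF2 0 to 4 over all settings, 0 under both rescaling methods, and 1 in the first under the stricter filter and in the second with rows summed. Synthesis and recycling had at most 1. Leaving out a library gave 0 to 1 for breakdown and export, 0 to 3 for NRF2 and 0 to 1 for synthesis. Called genes of the whole table numbered 0 to 828 over all settings and 5 to 284 with a library left out. The list counts cannot be read apart from those totals. Gstm1 turned to -0.11 after rescaling, -0.047 after quantile normalization and -0.076 when rescaled without nitroglycerin replicate 1. Gpx1 turned to -0.58 without control replicate 1 and ranged up to 1.44 with another library left out, values that rest on its possible failed estimates, Fth1 turned to -0.093 after rescaling and -0.12 when also without nitroglycerin replicate 1, and Fabp4 to -0.013 in that last setting. The cause of these changes was not tested. The other 7 members kept a log2 difference above 0 in every setting run. Neither ratio changed its direction. The p-value of Mgst1 to Mgst3 over all 8 libraries was already the lowest that its design allows, and it was still above the threshold after adjustment. With nitroglycerin replicate 1 left out, the exact permutation p of this ratio was higher, at the value given above. Mgst1 had no value under the stricter filter, and Gstm1 to Gstm2 was not run.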
